A study of Homo sapiens with 3 samples.

Results

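The transcripts described here are those of 10 secreted immune mediators, the interleukins IL1A, IL1B, IL6, IL11, IL24 and IL32, the IL-6 family member LIF, the colony-stimulating factors CSF2 and CSF3, and TNF. They were taken by symbol from a table of 58037 genes, and they had been selected on their counts in these same 3 libraries, so their values are a description and none was tested. A375, an established line of human melanoma cells, was exposed for 24 h to serum-free DMEM (control) or to the medium conditioned by adipocytes, called secretome, of young (YA-A375) or old (OA-A375) skin donors, and poly(A) RNA was sequenced. The adipocytes behind both secretomes were matured in culture from preadipocytes with insulin, dexamethasone, indomethacin and IBMX, the control medium had no contact with adipocytes, and the labels do not say how many donors stood behind each secretome. Each group had 1 library, so no difference has a replicate check, and an interval below covers counting error between libraries and nothing else. All 3 libraries came from the same cell line, so they describe 1 genetic background.

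Totals were 18089008 counts in OA, 21306558 in YA and 21448195 in control. Counts were divided by a size factor per library and are then called normalised counts. Of the melanoma markers listed, 9 of 14 reached a mean normalised count of 20, with 19441 counts of CSPG4 and 3262 of PRAME in control, while SOX10 had 0 counts in every library and TYR and DCT never exceeded 2. Leukocytes are the usual source of many of these cytokines. All 8 neutrophil markers stayed at or under 3 counts. Of 12 myeloid markers 8 did so, PTPRC, which encodes CD45, among them with at most 1 count, and the list summed to 190 counts in control, 189 with YA and 119 with OA. LYZ made up most of that sum at 148, 143 and 86 counts and alone passed the minimum, followed by CSF1R (16, 22 and 13), FCER1G (13, 11 and 14) and CD14 (7, 8 and 5). Of 13 fibroblast and preadipocyte markers 7 passed the same minimum, and the list summed to 1039 counts in control, 1414 with YA and 1519 with OA. These 7 did not move together. In the same order, COL6A3 had 145, 302 and 886 counts, DCN 13, 138 and 24 and COL1A1 75, 117 and 84. PDGFRB had 515, 568 and 334, FBLN1 136, 155 and 49, LUM 66, 101 and 58 and PDGFRA 76, 20 and 51. COL1A2, COL3A1, PI16 and DPT had at most 2 counts in any library. Of 12 adipocyte markers 6 passed, and the list summed to 810, 1482 and 517 counts, although ADIPOQ and LEP had at most 1 count. The 6 also differed, with PLIN4 at 284, 579 and 321, LPL at 353, 583 and 30 and LIPE at 79, 153 and 67. RBP4 had 28, 64 and 29, GPD1 40, 50 and 30 and CIDEC 6, 31 and 36. Of 6 endothelial markers 3 passed, KDR (180, 190 and 65), ESAM (45, 33 and 10) and PECAM1 (32, 18 and 23). The part of such cells in the values below was not tested.

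IL-1, TNF and the IL-6 family are alarm signals that cells release on injury or infection. IL-1α, IL-1β and TNF bind receptors that activate the transcription factor NF-kB and the AP-1 family, and the genes of IL-6, LIF and the colony-stimulating factors are well-known targets of that signalling. Many cytokine mRNAs are short-lived, because AU-rich stretches in their 3′ untranslated regions are bound by decay factors of the ZFP36 family. Tumour cells, melanoma included, can transcribe several of these genes themselves.

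The sequences that these regulators read are not part of the counts on which the 10 genes were selected. AU-rich stretches are known from many cytokine mRNAs, however, so the shares below describe a class of genes and are not independent of choosing cytokines. In the 3′ untranslated region of the transcript with the longest coding sequence (GENCODE 29), the AU-rich nonamer TTATTTATT was present in 5 of the 10 genes, CSF2, IL11, IL1B, LIF and TNF. Across 19114 protein-coding genes it was present in 7.15%, and among those with a region of at most 2000 bases in 3.67%. IL6, which lacks the nonamer, is denser in ATTTA than TNF, IL1B, IL11 and LIF. For the 5 genes with the nonamer, windows of 30 bases are shown from 5′ to 3′ on GRCh38, with the core ATTTA in capitals. Only windows that hold the nonamer were considered, and those shown have the most copies of ATTTA among them. They lie at chr5:132076072-132076101 on the plus strand for CSF2, chr6:31577999-31578028 on the plus strand for TNF, chr2:112830003-112830032 on the minus strand for IL1B, chr19:55365951-55365980 on the minus strand for IL11 and chr22:30240963-30240992 on the minus strand for LIF.
CSF2: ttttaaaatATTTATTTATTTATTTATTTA
TNF: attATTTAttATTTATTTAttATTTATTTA
IL1B: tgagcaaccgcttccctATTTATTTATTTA
IL11: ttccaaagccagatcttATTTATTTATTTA
LIF: agatgtctccgggcccttATTTAttATTTA

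Per kb of 3′ untranslated region, ATTTA occurred most often in CSF2, at 25.2 per kb (8 in 318 bases), followed by IL6 at 14.0, TNF at 11.3 and IL1B at 9.84. CSF3 held 8.20, IL24 7.13, IL11 5.56, IL1A 4.34 and LIF 2.18 per kb, and IL32 held none in 196 bases. The median over all protein-coding genes was 1.33 per kb, and 9.96% of genes reached 5 per kb, as 7 of the 10 cytokine genes did. CSF2 and IL32 thus lay at opposite ends of the set in these letters. Whether the letters bear on the counts was not tested.

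In the 250 bases before the RefSeq start site, 8 of the 10 genes could be searched on both strands (GRCh38.p14). NF-kB motifs were matched in IL6 and IL32, against 9.96% of 35116 promoters. The AP-1 letters TGANTCA were matched in IL1A and IL11 (6.57% of promoters), the C/EBP letters TTGCNNAA in IL1B and IL6 (9.05%) and TATAAA in IL1A and TNF (10.7%). TATAAA lay 29 to 24 bases before the start in TNF but 239 to 234 bases before 1 start site of IL1A. CSF2 and IL24 held no match to these patterns in this window, and sites that differ from the patterns were not searched. Windows of 30 bases are shown with the motif in capitals, as examples of the letters found before these genes. They are chr7:22727117-22727146 (plus strand) and chr7:22727034-22727063 (plus) for IL6, chr16:3065294-3065323 (plus) for IL32, chr19:55370542-55370571 (minus) for IL11, chr2:112784488-112784517 (minus) for IL1A and chr2:112836976-112837005 (minus) for IL1B. The windows of IL6, IL11 and IL1B lay outside the exons that GENCODE gives these genes, whereas that of IL1A lay within an exon and that of IL32 overlapped one by 27 bases.
IL6, NF-kB: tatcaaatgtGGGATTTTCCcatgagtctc
IL6, C/EBP: aggacgtcacaTTGCACAAtcttaataagg
IL32, NF-kB: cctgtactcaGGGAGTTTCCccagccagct
IL11, AP-1: aggcagggagggTGAGTCAggatgtgtcag
IL1A, AP-1: ggcgaagaagacTGACTCAggcttaagctg
IL1B, C/EBP: tggtgatacatTTGCAAAAtgtgtcatagt

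In OA, 8 of the 10 transcripts had a counting interval that lay above those of both other libraries, and IL1B and IL11 reached that level from a lower value in YA than in control. The same held for 3.48% of the 58037 genes in the table, and, among genes averaging 20 or more normalised counts, for 13.6% of all and 7 of the 8 cytokine genes. IL6 and IL32 reached that average only through their OA counts. The 10 genes were also selected on these counts, so these shares support nothing. IL6, CSF2 and CSF3 had few counts in control and many more in OA. IL32 was already higher in YA. IL24, the most abundant of the set per kb of exon, was nearly level, and TNF had at most 4 counts anywhere. In bulk RNA, a change in the number of cells that hold a transcript and a change in its amount per cell cannot be told apart.

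**Figure D1:**
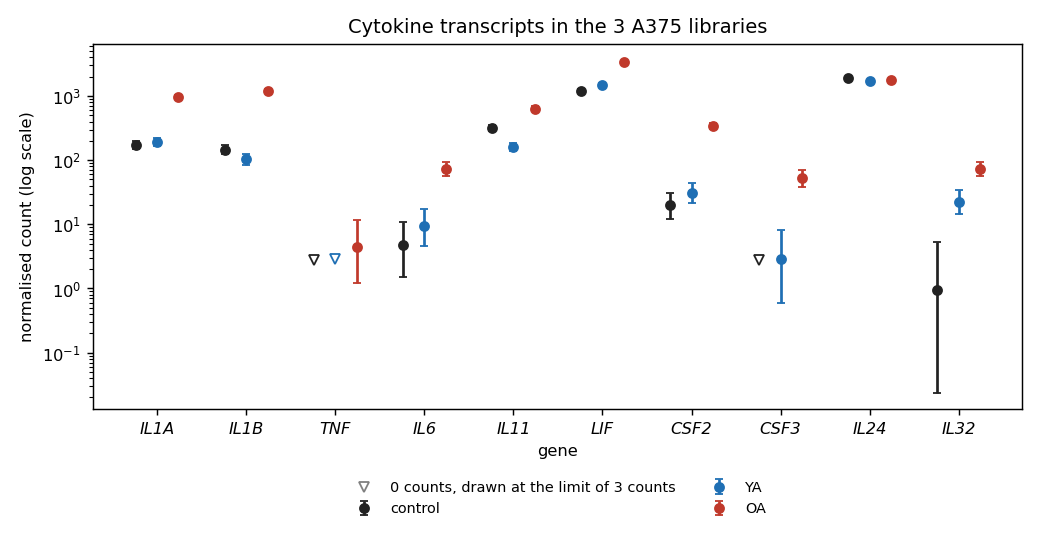
Normalised counts (log axis) of the 10 cytokine genes in the control, YA and OA libraries, 1 library each. Points are the values, bars the exact 95% Poisson counting interval, and open triangles mark 0 counts at the limit of 3 counts. OA points lie above both others for every gene except IL24.

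IL1A and IL1B encode the agonists of the IL-1 receptor and lie 45161 bases apart on the minus strand of chromosome 2 (IL1A, ENSG00000115008.5, GRCh38 chr2:112773915-112784590, and IL1B, ENSG00000125538.11, chr2:112829751-112836903). IL-1α can act as it is made or from the cell surface, whereas IL-1β becomes active by cleavage, for which caspase-1 is the best-known enzyme. IL1A had 184 counts in control, 201 with YA and 865 with OA, or 173, 190 and 971 normalised counts. OA stood apart from the other libraries, and YA and control overlapped in their counting intervals. The fold was 5.60 in OA against control (interval 4.77 to 6.60), 5.11 in OA against YA (4.38 to 5.99) and 1.10 in YA against control (0.893 to 1.35).

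IL1B had 154 counts in control, 109 with YA and 1075 with OA, which is 145, 103 and 1207 normalised counts. YA was the lowest library and OA the highest. IL1B was 8.32-fold higher in OA than in control (7.02 to 9.91) and 11.7-fold higher than in YA (9.61 to 14.4), while YA stood at 0.710 of control (0.550 to 0.913). As normalised counts per kb of exon, IL1A stayed above IL1B in all 3 libraries, at 81.6 against 46.9 in control, 89.4 against 33.3 in YA and 457 against 390 in OA. CKAP2L, the neighbour at 9238 bases from IL1A, had 2403, 2312 and 2307 counts.

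TNF (ENSG00000232810.3, chr6:31575567-31578336, plus strand), the founding ligand of its family, had 0 counts in control, 0 with YA and 4 with OA. These are too few for a fold change. Set against a limit of 3 counts in control, the OA value was 1.59-fold. The counting interval of 4 against 0 counts, taken without that limit, reached down to 0.786, so a difference was not detectable at this depth. Its neighbours in the same cluster, LTA and LTB, which encode the lymphotoxins, had 0, 1 and 1 and 1, 8 and 17 counts in control, YA and OA.

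IL6 (ENSG00000136244.11, chr7:22725884-22732002, plus strand) encodes the acute-phase cytokine that signals through IL6R and IL6ST. It had 5 counts in control, 10 with YA and 65 with OA, or 4.71, 9.45 and 73.0 normalised counts. Control and YA overlapped and OA lay above both. The fold was 15.5 in OA against control with a wide interval (6.31 to 49.3), 7.72 in OA against YA (3.94 to 16.9) and 2.01 in YA against control, where the interval ran from 0.625 to 7.48 and so held 1. IL6 shares 20.7% of its exon bases with genes on the opposite strand, and whether strand was used in counting is not given in the sources used here. Of these, STEAP1B, with 46 shared bases, had 454, 445 and 469 counts, and AC073072.1, with 428 shared bases, had 0, 0 and 2.

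IL11 (ENSG00000095752.6, chr19:55364389-55370463, minus strand), a relative of IL-6 known from stromal and bone cells, had 341 counts in control, 170 with YA and 569 with OA. As normalised counts these are 321, 161 and 639, so the 3 libraries were all apart and YA was the lowest. IL11 in YA stood at 0.50 of control (0.414 to 0.603), just short of the 2-fold limit used for counts of genes below. OA was 1.99-fold above control (1.73 to 2.28), again just short of it, and 3.98-fold above YA (3.34 to 4.75).

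LIF (ENSG00000128342.4, chr22:30240447-30246851, minus strand) encodes leukaemia inhibitory factor, the IL-6 family ligand of LIFR. It had 1283 counts in control, 1589 with YA and 3067 with OA, or 1209, 1502 and 3443 normalised counts. The libraries were ordered control, YA and OA with no overlap between intervals. LIF was 1.24-fold higher in YA than in control (1.15 to 1.34), 2.85-fold higher in OA than in control (2.67 to 3.04) and 2.29-fold higher in OA than in YA (2.16 to 2.44). Antisense genes share 6.73% of its exon bases and had at most 16 counts. OSM, the neighbouring family member, had 0 counts in every library.

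CSF2 (ENSG00000164400.5, chr5:132073790-132076170, plus strand) encodes GM-CSF, a growth factor of granulocytes and macrophages. It had 21 counts in control, 33 with YA and 305 with OA, that is 19.8, 31.2 and 342 normalised counts. OA was 17.3-fold above control (11.1 to 28.4) and 10.98-fold above YA (7.65 to 16.2), whereas YA against control gave 1.58 with an interval that held 1 (0.885 to 2.87). IL3, which lies beside it, had 0 counts in all libraries.

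CSF3 (ENSG00000108342.12, chr17:40015361-40017813, plus strand) encodes G-CSF, the growth factor of neutrophils. It had 0 counts in control, 3 with YA and 47 with OA. No fold is given for YA against control, since both lie at or under the limit of 3 counts. Set against a limit of 3 counts in control, OA was 18.7-fold higher. The counting interval of 47 against 0 counts, taken without that limit, reached down to 14.6. OA was 18.6-fold higher than YA, with a wide interval of 5.99 to 93.5. MED24, which lies 1284 bases away, had 1831, 1907 and 1427 counts.

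IL32 (ENSG00000008517.16, chr16:3065297-3082192, plus strand) encodes a cytokine first described in T and NK cells that induces TNF and IL-6 in other cells. It had 1 count in control, 24 with YA and 65 with OA, or 0.942, 22.7 and 73.0 normalised counts. All 3 libraries were apart, and IL32 and LIF were the only genes of the 10 whose interval for YA against control lay wholly above 1. With 1 count in control the intervals are very wide, at 24.1 for YA (3.93 to 989.9) and 77.4 for OA (13.4 to 3105) against control. OA against YA, where both libraries had counts, gave 3.22 (1.99 to 5.37). The snRNA gene RNU1-125P shares 129 bases of its exons and had 0 counts.

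IL24 (ENSG00000162892.15, chr1:206897443-206904139, plus strand), an IL-10 family cytokine also known as melanoma differentiation-associated gene MDA-7, had 2023 counts in control, 1797 with YA and 1563 with OA. The normalised counts were 1906, 1698 and 1754. Both secretome libraries were slightly lower than control, at 0.891 in YA (0.836 to 0.95) and 0.920 in OA (0.861 to 0.984), and OA and YA overlapped (1.03, 0.965 to 1.11). IL20, a neighbour of the same family, had 0 counts, and FCMR, 247 bases away, had 79, 76 and 36.

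**Figure D2:**
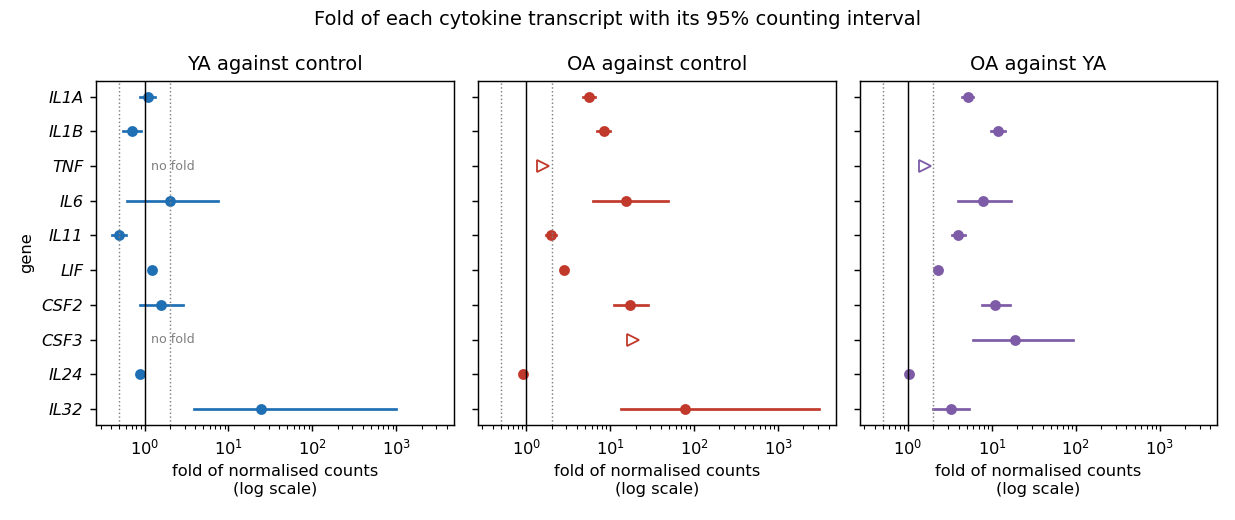
Fold of normalised counts (log axis) for each cytokine gene in YA against control, OA against control and OA against YA, with exact 95% counting intervals. Bounds against a library with 0 counts are drawn apart from ratios, and IL24 lies closest to 1 in both comparisons with OA.

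Levels of different genes were compared as normalised counts per kb of exon. In control the order was IL24 at 963, LIF at 305, IL11 at 120, IL1A at 81.6, IL1B at 46.9 and CSF2 at 25.1, each apart from its neighbour by its counting interval, and then IL6 at 2.28 and IL32 at 0.294, whose intervals overlapped each other and the genes at 0. In YA the order was IL24 at 858, LIF at 378, IL1A at 89.4, IL11 at 60.2, CSF2 at 39.6 and IL1B at 33.3, where IL11 overlapped CSF2 and CSF2 overlapped IL1B. IL32 followed at 7.07, IL6 at 4.57 and CSF3 at 1.28, each overlapping the next. In OA, IL24 at 887 and LIF at 867 were no longer apart, and IL1A at 457 overlapped CSF2 at 435, which overlapped IL1B at 390. IL11 came next at 239, then IL6 at 35.3, CSF3 at 23.8 and IL32 at 22.7 without separation, and TNF last at 2.68.

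Counts of the 10 genes together were 4012 in control, 3936 with YA and 7625 with OA, or 187, 185 and 422 of every 1000000 counts (95% Wilson interval 412 to 431 in OA). Their make-up differed between the libraries. IL24 held 50.4% of these counts in control (48.9 to 52.0), against 45.7% with YA (44.1 to 47.2) and just 20.5% with OA (19.6 to 21.4). LIF held 32.0%, 40.4% and 40.2%. IL1B went from 3.84% in control and 2.77% in YA to 14.1% in OA, IL1A from 4.59% and 5.11% to 11.3%, and CSF2 from 0.523% and 0.838% to 4.0%. IL11 held 8.50%, 4.32% and 7.46%. The summed normalised counts were 0.984-fold in YA and 2.26-fold in OA of control, and because IL24 and LIF carry most of that sum, the same sums without these 2 genes were 0.781-fold and 5.05-fold.

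**Figure D3:**
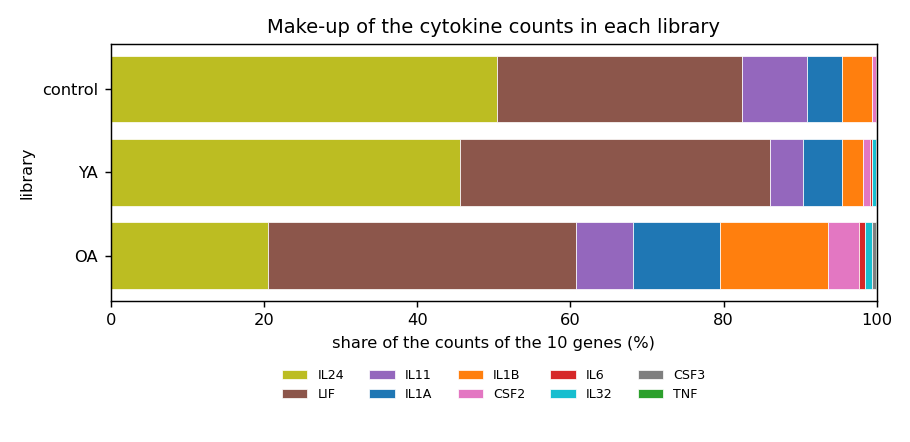
Share of the counts of the 10 cytokine genes taken by each gene (horizontal axis, percent) in each library. IL24 takes 50.4% in control and 20.5% in OA, where IL1A and IL1B together with CSF2 take a larger share than in control or YA.

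The genes were then set beside the 14413 genes whose normalised counts averaged 20 or more over the 3 libraries, 8 of the 10 cytokine genes among them. CSF3 and TNF did not. IL6 and IL32 passed through their OA counts, so they had to differ, and the counts that follow support nothing. At least 2-fold higher in OA than in control were CSF2, IL1A, IL1B, IL32, IL6 and LIF, 6 of these 8, against 2.95% of all genes that reached the minimum, and none was 2-fold lower, as 3.87% of all genes were. Of the same 8, 7 were at least 2-fold higher in OA than in YA, IL11 being the one added, against 3.16%, and 0 were lower against 4.57%. In YA against control 2 were higher, IL32 and IL6, against 2.23%, and 0 lower against 1.12%, and the IL6 value rests on 5 and 10 counts. The comparisons share libraries, so they do not stand independently of each other.

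On the log2 scale, the median over all of these genes was 0.01 for OA against control, -0.02 for YA against control and 0.01 for OA against YA, and the 8 cytokine genes had medians of 2.77, 0.22 and 2.17. Ranked from the highest fold among the 14413 genes in OA against control, IL32 was at place 3, CSF2 at 8, IL6 at 9, IL1B at 25, IL1A at 47, LIF at 166, IL11 at 429 and IL24 at 9487. In YA against control IL32 was at place 1, IL6 at 311, CSF2 at 737, LIF at 2086, IL1A at 4125, IL24 at 10542, IL1B at 13468 and IL11 at 14251. The places of IL32 and IL6 there rest on 1 and 5 control counts, and both genes entered the ranking through their OA counts, so these places and the medians support nothing either. In OA against YA the places were 18 for IL1B, 20 for CSF2, 27 for IL6, 59 for IL1A, 85 for IL11, 139 for IL32, 318 for LIF and 6600 for IL24.

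**Figure D4:**
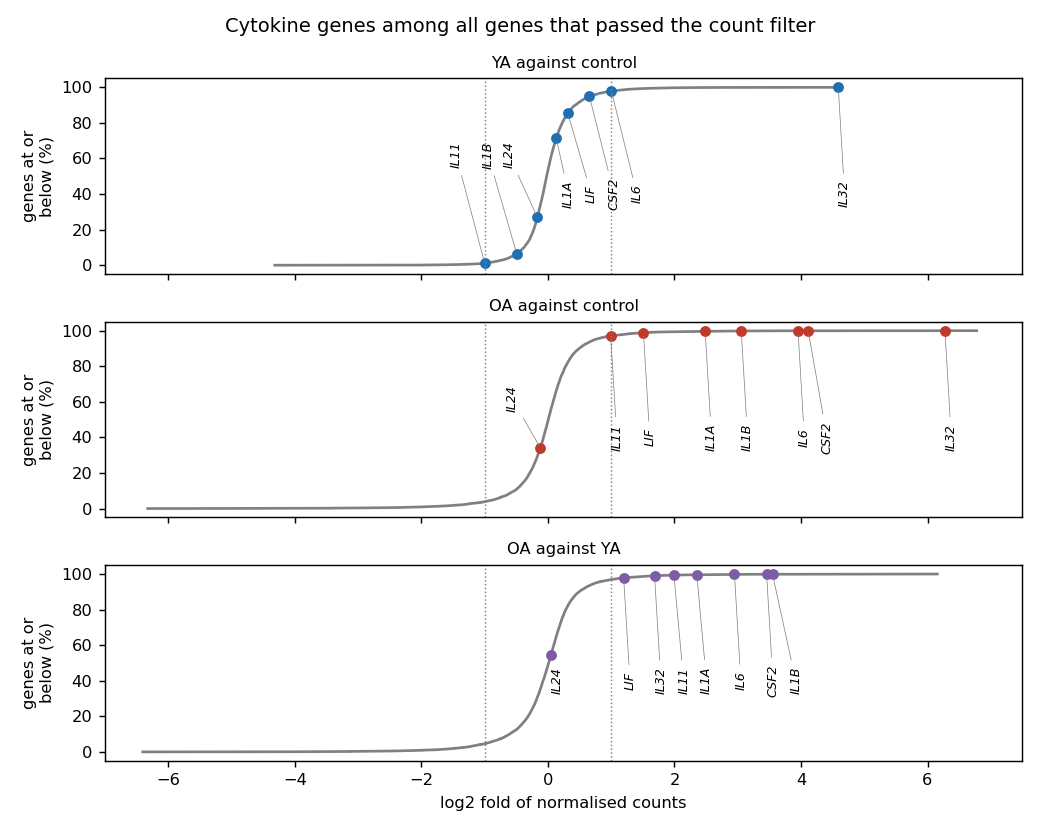
Percent of the 14413 genes above the count minimum at or below each log2 fold (grey curve) in the 3 comparisons, with the 8 cytokine genes that passed the count minimum as points and dotted lines at 2-fold. In OA against control every cytokine gene except IL24 lies at the upper end of the curve. In YA against control they spread along it, from IL32 at the top to IL11 near the bottom.

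The receptors of these ligands were counted from a list of 16 genes, of which 9 passed the minimum. None of these 9 was 2-fold higher in any comparison. Over all genes above the minimum, 2.23% were higher in YA against control, 2.95% in OA against control and 3.16% in OA against YA. The shares 2-fold lower were 1.12%, 3.87% and 4.57% in the same order. LIFR, the receptor of LIF, had 878 counts in control, 611 with YA and 167 with OA and was the only one 2-fold lower in OA against control (0.227, interval 0.191 to 0.268), so the ligand was highest in the library in which its receptor was lowest. Against YA, LIFR (0.325) and TNFRSF1B (0.440), a TNF receptor with 258, 378 and 140 counts, were 2-fold lower in OA. IL6ST, the signalling subunit shared by the IL-6 family, was abundant and nearly level at 5675, 5211 and 4538 counts (0.921 in YA and 0.953 in OA of control), and TNFRSF1A, the main TNF receptor, was 1.70-fold higher in OA (1.63 to 1.77). IL6R had 476, 503 and 303 counts. IL1R1, the receptor of both IL-1 forms, had only 4, 11 and 24 counts, and IL1RAP, its partner, 823, 951 and 457. CSF2RA, CSF2RB and CSF3R, which bind GM-CSF and G-CSF, had 0 counts in every library, as did IL20RA, a chain of one IL-24 receptor. The chains of the other IL-24 receptor were counted, IL22RA1 at 87, 109 and 109 and IL20RB, which both receptors share, at 26, 19 and 15. The median log2 fold of the receptors in OA against control was -0.40.

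Of 15 natural antagonists and processing enzymes listed, 10 passed and 0 were 2-fold apart in any comparison. Over all genes the shares ranged from 1.12% to 4.57% per comparison and direction, so 0 of 10 is near them. CASP1, which cleaves IL-1β, had 2, 1 and 13 counts, and the antagonists IL1RN and IL1R2 had at most 2. In the IL-1 and TNF signalling list, 25 of 26 genes passed. Of these 25, 4 were at least 2-fold higher in OA than in control, against 2.95% of all genes. In YA against control 3 were higher, against 2.23%. In OA and YA 0 were lower, against 3.87% and 1.12%, and 0 of 25 is near those shares. The median log2 folds of the list were 0.16 in OA and -0.00 in YA. BIRC3, an NF-kB-inducible inhibitor of cell death, had 130, 288 and 886 counts and was 8.12-fold higher in OA (6.75 to 9.84) and 2.22-fold higher in YA (1.80 to 2.75). NFKBIA, the inhibitor of NF-kB, had 376, 768 and 1379 counts, 4.37-fold higher in OA and 2.05-fold in YA. TNFAIP3, a ubiquitin-editing brake on the pathway, had 182, 374 and 434 counts, 2.84-fold and 2.06-fold. IRAK2, a kinase of the IL-1 receptor complex, had 139, 153 and 351 counts and was 3.01-fold higher in OA and 1.10-fold in YA. BIRC3, NFKBIA and TNFAIP3, named because they passed 2-fold, thus stood above control in both secretome libraries. IL1A and IL1B did not exceed 1.10-fold in YA, and any link between these values was not tested.

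Among 15 genes of mRNA decay and stability, all of which passed, ZC3H12A, the regnase that degrades cytokine mRNA, was the only one past 2-fold against control. It was 2.07-fold higher in YA and 2.97-fold in OA than in control (136, 281 and 339 counts). Over all genes 2.23% and 2.95% were 2-fold higher in these comparisons, so 1 of 15 is no result about the list. ZFP36, which binds the AU-rich letters shown above, had 852, 1462 and 565 counts, so it was 1.72-fold of control in YA (1.58 to 1.87) and 0.790 in OA (0.709 to 0.880), and 0.459 in OA against YA. The median of the list was 0.02 in each comparison. Of 58 other interleukins, TNF ligands and growth factors, 14 passed and 19 had 0 counts in all libraries. TNFSF13B (14, 15 and 35 counts, 2.98-fold) and EBI3 (119, 171 and 225, 2.25-fold) were at least 2-fold higher in OA than in control, against 2.95% of all genes. TNFSF13B reached the minimum only through its OA count, so its place among the higher genes supports nothing. IL16 (67, 44 and 23, 0.409) was lower, against 3.87%. IL18, which caspase-1 also matures, was 2.14-fold higher in OA than in YA (116, 97 and 175 counts). The median of this list was 0.38 in OA against control.

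**Figure D5:**
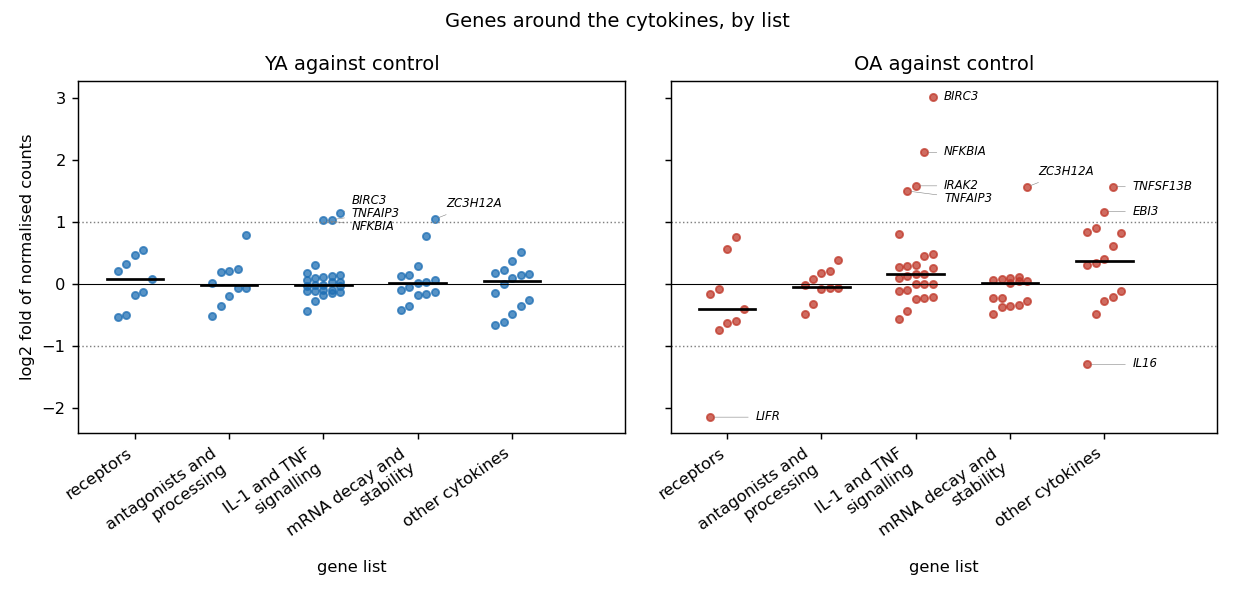
Log2 fold of normalised counts against control in YA and OA for the genes of 5 lists that passed the count minimum, with black bars at the median of each list and dotted lines at 2-fold. Most genes lie within 2-fold in both panels, and the named exceptions include BIRC3 and NFKBIA above and LIFR below.

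The genes above the count minimum whose 2 folds against control came closest to those of the summed cytokine counts were NAP1L3 (87, 84 and 164 counts in control, YA and OA), the pseudogenes UBE2SP2 and ANXA2P1, ATOX1 (734, 722 and 1338) and PTHLH (73, 69 and 143), at Euclidean distances in log2 of 0.026 to 0.069 over the 3 libraries. That sum follows IL24 and LIF more than the other cytokines.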

How the data were processed

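Raw whole-number counts per gene were deposited by the authors, 1 column per library, for poly(A) RNA prepared with an Agilent SureSelect kit. Per the submitters' processing notes they used STAR 2.5.1b, featureCounts, R 3.6.1 and hg38; the annotation release, strand setting and handling of multi-mapping reads are not given in the sources used here. The study's methods name DESeq2 and a cutoff of 1.2. The series gives 24 h of exposure, whereas the treatment protocol of the labels gives a range that starts there.

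Size factors were computed by the median-of-ratios method of DESeq2 1.42.0 in R 4.3.3 (control 1.06, YA 1.06, OA 0.891), and counts were divided by them. Folds are ratios of these values with exact 95% Clopper-Pearson intervals, and levels have exact Poisson and shares Wilson intervals. They cover counting error only, since reads that carry no molecular identifier need not be independent molecules. With 1 library per group, edgeR's quasi-likelihood test could not be run and no p-value was computed. A library at 0 was set to 3 counts and the fold is a bound from that limit, while its interval kept the 0. With 1 to 3 counts the ratio is given, although the design written earlier had a bound there too. With both libraries at or under 3 no fold is given. A 2-fold limit was applied to genes averaging 20 or more normalised counts.

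The members, the gene lists and the limits were chosen with earlier results of these data known. All 10 genes are named, with overlapping and neighbouring genes, and up to 5 genes per list that were at least 2-fold apart in any comparison; the other receptors and processing genes, and the marker genes, are named after their values were seen. Positions are from GENCODE 29 (57433 of 58037 identifiers matched without version). Promoters are from RefSeq (GRCh38.p14), where 8 of 10 genes matched; LIF and CSF3 did not. The 2 NF-kB matches of IL32 overlap. Python 3.11.15 was used with matplotlib 3.10.9, scipy 1.17.1, pandas 2.3.3 and numpy 2.4.6, and the interval procedure was tested on simulated data. Alternatives were edgeR 4.0.16 TMM and total-count scaling, pseudocounts of 1 and 5, other filters and thresholds and, after the data had been seen, sums without IL24 and LIF.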

Additional observations from a re-analysis of the deposited data

Results flagged for a closer look

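IL1B and IL11 stood on opposite sides of control in the libraries of the 2 secretomes. IL1B was at 0.710 of control in YA and 8.32-fold of control in OA. IL11 was at 0.50 of control in YA and 1.99-fold of control in OA. Each side is 1 library, both folds share the control library, and the difference was not tested.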

How the results depend on the processing

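No paired analysis was possible because each group had 1 library, and for the same reason no replicate could be left out. With a pseudocount of 1, or with scaling by TMM or by total counts, all 28 folds of the cytokine genes stayed within their counting intervals, and under a pseudocount of 5 26 did, the exceptions being IL32 (13.1) and CSF3 (11.6) in OA against control. No fold reversed. The 2 cytokine genes higher by 2-fold in YA against control became 0 at a minimum mean of 100, 4 at 1.2-fold, 1 at a log2 fold of 1.2 and 1 with the interval wholly beyond 2-fold, and the 0 lower became 1 under TMM scaling, which is IL11, and 2 at 1.2-fold. For OA against control the number higher ranged from 4 to 7 and for OA against YA from 5 to 8. Counts over all genes moved with the filter and threshold. In YA against control the genes higher and lower were 2108 and 1075 without a filter, 91 and 44 at a minimum mean of 100, 2510 and 2385 at 1.2-fold, 195 and 95 at a log2 fold of 1.2, and 87 and 36 with the interval wholly beyond 2-fold. In OA against control they were 1536 and 1876, 178 and 227, 3056 and 3104 under the first 3 of these, and 180 and 243 under the last. In OA against YA they were 1507 and 2346, 213 and 237, 3111 and 3335, and 206 and 238. At a minimum mean of 100, where fewer genes are counted, the median of the other cytokines in OA against control was 0.83 and that of the receptors in OA against YA was -0.22. Without IL24 the summed cytokine counts were 1.08-fold of control in YA and 3.63-fold in OA, and 3.37-fold in OA against YA. Counts limit TNF, CSF3, IL6 and IL32 most.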
